A study of Mus musculus with 48 samples.

Results

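Subcutaneous white fat was compared between mice 9 days after Roux-en-Y gastric bypass (RYGB) and mice 9 days after sham surgery. The 8 libraries of subcutaneous white adipose tissue, 4 RYGB and 4 sham, were taken by their tissue label from the 48 libraries of the series, which cover 6 tissues. All mice were male C57Bl6 animals made obese on a high fat diet. Both groups received a liquid elemental diet after surgery, fasted and were killed in the morning. The labels also mention a later return to the high fat diet, without saying whether it came before these mice were killed. In RYGB a small stomach pouch is joined to the jejunum, and food no longer passes through the main stomach and duodenum. Sham mice had surgery without this rerouting. The labels give neither the age nor the body weight of the mice, and they do not say whether the sham group was weight-matched, so the operation and a difference in weight or food intake cannot be told apart. Each library is labelled as a separate sample, and no label states how many mice a sample holds.

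White fat stores energy as triglyceride in adipocytes, which take up fatty acids from lipoproteins, make new ones from glucose, and release them again when insulin falls and noradrenaline or natriuretic peptides rise. Adipocytes also secrete hormones such as leptin and adiponectin. Around them lie a collagen-rich matrix laid down by fibroblasts and progenitors, a dense capillary bed and macrophages, while the inguinal fat pad of the mouse encloses a lymph node rich in B and T cells.

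The table listed 13413 genes in CPM (read counts scaled to a common library total), and 13379 with a mean of at least 1 CPM were tested. A differentially expressed gene (DEG) had a Benjamini-Hochberg adjusted p-value under 0.05 in limma and a fold change of at least 1.5. Of the genes tested, 1996 (14.9%) were higher and 1235 (9.23%) were lower in the RYGB group, and the median gene had a log2 fold change of 0.105. With a median-ratio scaling of the libraries, 1649 were higher and 1668 lower. For 26.1% of genes the 4 RYGB values were all above the 4 sham values, and for 15.0% they were all below. The genes described below belong to 34 lists of cell type markers and pathways, and these percentages are the background for their counts. The list counts are descriptions and were not tested as sets. Scd1 was the most abundant gene in all 8 libraries, and the share of the top 10 genes was 4.81% at the least (RYGB 4) and 14.1% at the most (RYGB 1).

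The B and T cell lists had the highest median differences of the 34 lists. All 17 measured B cell genes and all 24 T cell genes were DEGs with higher levels in the RYGB group, with median log2 fold changes of 5.79 and 4.50. The summed B cell genes stood at 2525, 3519.5, 4429 and 6733 in RYGB 1 to 4 and 362, 253, 95.4 and 219.9 in sham 1 to 4 (CPM). The summed T cell genes stood at 1038, 1200.4, 1537.5 and 4178.5 in RYGB 1 to 4 and 60.2, 81.0, 74.3 and 118 in sham 1 to 4 (CPM). The RYGB libraries therefore all exceeded the sham libraries, and RYGB 4 held the most lymphocyte RNA. Ms4a1, the B cell surface protein CD20, was at 131, 201, 248 and 330.3 CPM in RYGB 1 to 4 and 1.3, 1.1, 1.5 and 1.6 CPM in sham 1 to 4. Glycam1, made by the high endothelial venules through which lymphocytes enter lymph nodes, was at 42.0, 58.3, 58.1 and 136 CPM in RYGB 1 to 4 and 0.0, 0.1, 0.0 and 0.2 CPM in sham 1 to 4. It was at or near 0 in every sham library and at 42.0 CPM or more in every RYGB library. Every listed gene reached 1 CPM in 4 or more of the 8 libraries. A gene this low in the sham group is thus listed only if all 4 RYGB libraries reach 1 CPM. The lack of overlap of Glycam1 was therefore fixed in advance, though the size of its difference was not. Among the genes of lymph node stroma and vessels 8 of 9 were higher, with Cxcl13, the chemokine of B cell follicles, at 4.19 ± 0.62 (SE), adjusted p = 0.0024 on the log2 scale. Of the dendritic cell genes 5 of 8 were higher. Of the plasma cell genes 3 of 7 were higher (Igkc, Jchain and Mzb1) and 1 was lower (Sdc1, which epithelial and stromal cells also express). The Jchain call was lost without sham 2 (adjusted p = 0.053).

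Because CPM is a share of each library, lymphocyte RNA in the RYGB libraries lowers the share left for fat genes. The part of the lymphocyte RNA in the fat results was not tested, so the values are also given after scaling each library to 10 adipocyte genes (Adipoq, Plin1, Plin4, Cidec, Fabp4, Pparg, Cebpa, Lipe, Acvr1c and Adig). For each gene the log2 level in a library was set against its mean log2 level over the libraries. The median of these 10 differences gave the scaling factor of the library. In bulk tissue, fewer cells of a type and less RNA per cell cannot be told apart.

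**Figure D1:**
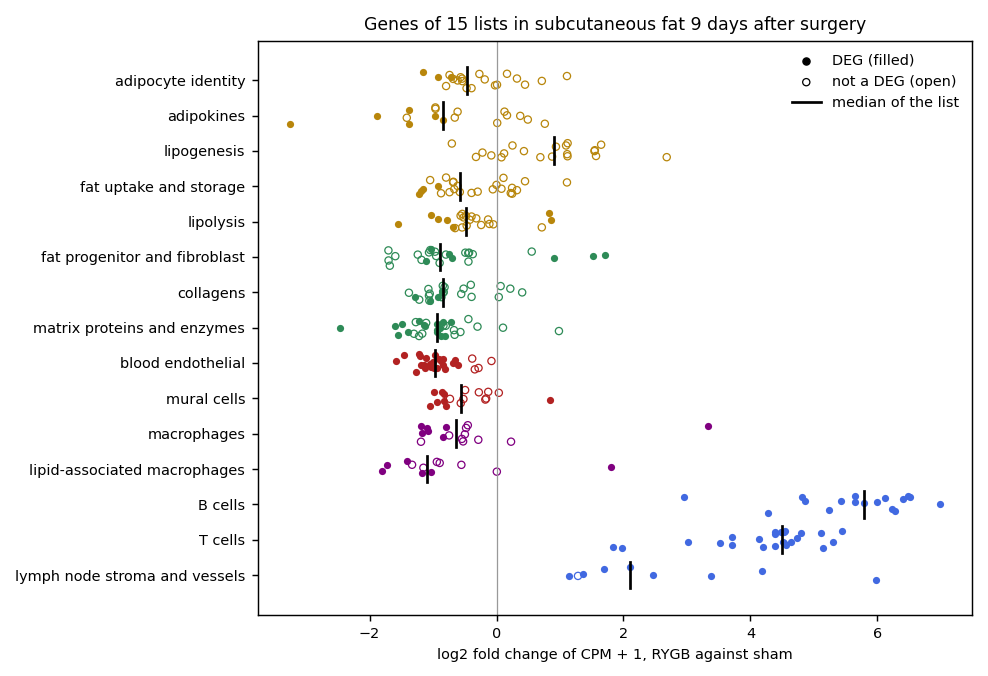
Log2 fold change of each tested gene of 15 lists (horizontal axis, RYGB against sham, on the log2(CPM + 1) scale), with filled points for DEGs, open points for the rest and a black bar for the median of each list. Blood endothelial genes lie below 0 without exception (median -0.97), lipogenesis genes spread from -0.70 to 2.68 with every point open, and B and T cell genes lie far to the right.

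Adipocyte identity genes were lower by point estimate for most members, but few passed the test. Of 21 genes, 3 were DEGs and all 3 were lower, with a median log2 fold change of -0.47. Plin4, which coats lipid droplets, was at 1794, 2017, 2117 and 1444 CPM in RYGB 1 to 4 and 3281.5, 2927, 3716 and 3975 CPM in sham 1 to 4. Its groups did not overlap and the log2 fold change was -0.92 ± 0.23 (SE), adjusted p = 0.017. The call was lost without sham 4 (adjusted p = 0.051). Aqp7, the channel through which glycerol leaves the adipocyte, was at 178, 235, 164 and 153 CPM in RYGB 1 to 4 and 283, 284, 612 and 535 CPM in sham 1 to 4, with a log2 fold change of -1.16 ± 0.28 (SE), adjusted p = 0.014. It stayed a DEG in all 8 fits that left out 1 library. Trarg1, which takes part in moving the glucose transporter GLUT4, had a log2 fold change of -0.71 ± 0.21 (SE), adjusted p = 0.03, and it was no DEG without RYGB 2, RYGB 4, sham 1, sham 2, sham 3 or sham 4 (highest adjusted p = 0.079). The list count fell from 3 to 1 without sham 4.

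Adiponectin (Adipoq), the most used marker of white adipocytes, was at 1592, 1466, 1464.5 and 864 CPM in RYGB 1 to 4 and 2075, 1692, 2146 and 2153 CPM in sham 1 to 4. All RYGB libraries lay below the sham libraries, yet the log2 fold change was -0.61 ± 0.24 (SE), adjusted p = 0.07, and the lowest value belonged to RYGB 4. Pparg, the master regulator of fat cell formation, was at 215.5, 190.3, 160.1 and 95.3 CPM in RYGB 1 to 4 and 242.5, 219, 200.0 and 220.1 CPM in sham 1 to 4, and the groups overlapped (adjusted p = 0.13). Fabp4, the fatty acid carrier of fat cells, was at 7614, 6424, 6179 and 4046.5 CPM in RYGB 1 to 4 and 7498, 7703, 14431 and 13319.8 CPM in sham 1 to 4, with RYGB 1 above sham 1 (adjusted p = 0.18). Summed over the list, the level was 38838, 36375, 28446 and 17548 in RYGB 1 to 4 and 41277, 31183, 42773 and 40317 in sham 1 to 4 (CPM). RYGB 4, the library with the most lymphocyte RNA, had the least. RYGB 3 also lay below the sham range, whereas RYGB 1 and RYGB 2 lay within it.

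Several secreted adipocyte products were lower after RYGB. Of 17 adipokine genes 6 were DEGs, all lower, with a median log2 fold change of -0.85. Sfrp5, a secreted inhibitor of WNT signalling whose expression is known to rise as adipocytes enlarge, had the lowest log2 fold change of any gene on the adipocyte lists. Its gene lies at chr19:42197971-42202252 of GRCm38. It was at 9.5, 14.4, 30.2 and 22.3 CPM in RYGB 1 to 4 and 46.6, 201, 269 and 368 CPM in sham 1 to 4. The groups did not overlap, the log2 fold change was -3.25 ± 0.61 (SE), adjusted p = 0.006, and sham 1 was the lowest of the sham libraries. Apelin (Apln), a peptide made by adipocytes and vessel cells, was at 6.8, 10.5, 12.0 and 4.6 CPM in RYGB 1 to 4 and 20.9, 59.4, 45.6 and 18.9 CPM in sham 1 to 4, with a log2 fold change of -1.89 ± 0.40 (SE), adjusted p = 0.0097. Ccdc80, a matrix-bound adipocyte protein, was at 599.9, 632, 751 and 441 CPM in RYGB 1 to 4 and 1130.5, 1192, 1170.1 and 1201 CPM in sham 1 to 4. Its sham values were close together, and the log2 fold change was -0.98 ± 0.18 (SE), adjusted p = 0.0053. Rarres2, which encodes the attractant chemerin, changed by -0.85 ± 0.21 (SE), adjusted p = 0.015. These 4 genes were DEGs in all 8 fits without 1 library.

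Leptin (Lep), the hormone that reports fat stores to the brain, was at 482, 389.5, 651 and 196 CPM in RYGB 1 to 4 and 789, 1754, 644 and 1239.7 CPM in sham 1 to 4. The groups overlapped at RYGB 3 and sham 3, the log2 fold change was -1.38 ± 0.42 (SE), adjusted p = 0.031, and the call was lost without RYGB 2, sham 2 or sham 4 (highest adjusted p = 0.078). Angptl4, an inhibitor of lipoprotein lipase induced by fasting, was at 129.8, 117, 197 and 185.5 CPM in RYGB 1 to 4 and 144, 371, 791.5 and 599.8 CPM in sham 1 to 4. RYGB 3 and RYGB 4 exceeded sham 1, the log2 fold change was -1.37 ± 0.47 (SE), adjusted p = 0.048, and the call was lost without RYGB 1, RYGB 2, RYGB 3, RYGB 4, sham 2, sham 3 or sham 4 (highest adjusted p = 0.12). Other adipokines did not pass the test: resistin (Retn) was at 851, 573.5, 536 and 194 CPM in RYGB 1 to 4 and 555, 323, 199 and 171.5 CPM in sham 1 to 4 (adjusted p = 0.24), and Cfd, which encodes adipsin, was at 4586, 5209, 2202 and 1808.5 CPM in RYGB 1 to 4 and 4924, 2704, 3838.5 and 1179 CPM in sham 1 to 4 (adjusted p = 0.82).

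Against the RNA of the same adipocytes the order of the groups held for Sfrp5 in part. Per 1000 CPM of Adipoq, Sfrp5 stood at 5.97, 9.82, 20.6 and 25.8 CPM in RYGB 1 to 4 and at 22.5, 119, 125 and 171 CPM in sham 1 to 4. RYGB 4 then exceeded sham 1. Lep per 1000 CPM of Adipoq ranged from 227 to 445 CPM in the RYGB group and from 300 to 1040 CPM in the sham group, so the groups overlapped. After scaling to the 10 adipocyte genes, Sfrp5 (-2.68, adjusted p = 0.0053) and Apln (-1.36, adjusted p = 0.025) were still DEGs, and Lep was at -0.80, adjusted p = 0.092.

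**Figure D2:**
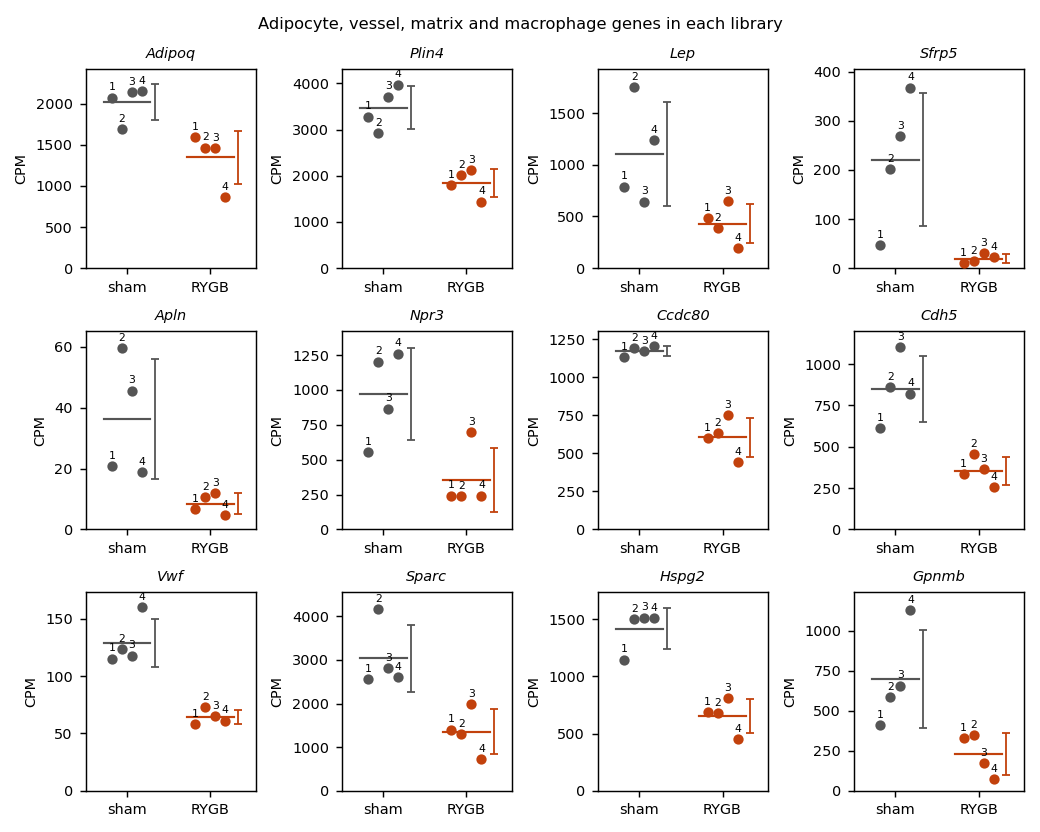
CPM of 12 genes in each library (vertical axes start at 0), with the replicate number above each point, a line at the group mean and a bar of 1 SD beside it (n = 4). Plin4, Sfrp5, Apln, Ccdc80, Cdh5, Vwf, Sparc, Hspg2, Gpnmb and Adipoq show no overlap between groups, whereas Lep and Npr3 overlap at RYGB 3.

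The genes of de novo lipogenesis, the synthesis of fatty acids from acetyl-CoA, varied widely within each group, and none passed the test. Of 20 genes 0 were DEGs in limma with or without the mean-variance trend, and at an unadjusted p under 0.05 1 was higher and 2 were lower. The median log2 fold change was 0.91. Fasn, the fatty acid synthase, was at 17977, 10099, 6316 and 961 CPM in RYGB 1 to 4 and 6939, 2158, 179 and 240.4 CPM in sham 1 to 4. It spanned a wide range in each group, RYGB 4 and sham 1 overlapped the other group, and the log2 fold change was 2.68 ± 1.29 (SE), adjusted p = 0.13. Acly, which supplies acetyl-CoA, was at 2318, 1570.4, 542 and 241 CPM in RYGB 1 to 4 and 587, 312, 183 and 192 CPM in sham 1 to 4 (adjusted p = 0.1). Elovl6, which lengthens palmitate, was at 218.5, 102.5, 80.3 and 27.5 CPM in RYGB 1 to 4 and 59.8, 34.7, 17.7 and 17.0 CPM in sham 1 to 4 (adjusted p = 0.073). Thrsp, a lipogenic nuclear protein, was at 1775, 1019, 581 and 155 CPM in RYGB 1 to 4 and 653, 334.5, 83.8 and 90.8 CPM in sham 1 to 4 (adjusted p = 0.15).

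Of the 20 genes 16 were highest in sham 1 among the sham libraries, 11 were lowest in sham 3 and 6 in sham 4. Among the RYGB libraries 18 were highest in RYGB 1 and 19 were lowest in RYGB 4. Scd1, the desaturase that makes oleate, did not follow the same order. It was at 58762, 26138, 56745 and 12604 CPM in RYGB 1 to 4 and 45882, 46075, 44186 and 21784 CPM in sham 1 to 4, with a log2 fold change of -0.22 ± 1.00 (SE), adjusted p = 0.87. The controlling factor Srebf1 was at 678, 519.7, 414 and 198 CPM in RYGB 1 to 4 and 584, 289, 224 and 231 CPM in sham 1 to 4 (adjusted p = 0.43), and the carbohydrate-responsive factor Mlxipl was at 165, 154, 88.6 and 50.0 CPM in RYGB 1 to 4 and 140.5, 97.1, 74.4 and 140.1 CPM in sham 1 to 4 (adjusted p = 0.88). G6pdx, which makes NADPH for lipid synthesis, had a log2 fold change of -0.70 ± 0.29 (SE), adjusted p = 0.083, opposite in sign to Tkt and Pgd. Relative to the 10 adipocyte genes 14 of the 20 genes were DEGs with higher levels in the RYGB group, and Fasn was at 3.26, adjusted p = 0.026. On that scale 34.2% of all genes tested were higher, and the median gene had a log2 fold change of 0.652. The result for this list thus depended on the scaling.

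**Figure D3:**
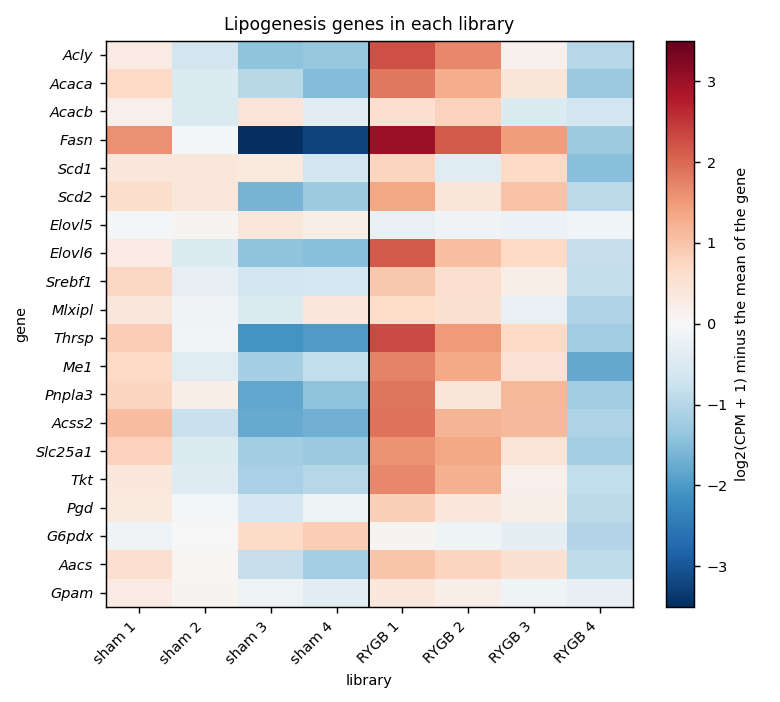
Level of 20 lipogenesis genes (rows) in each library (columns, sham left and RYGB right of the line) as log2(CPM + 1) minus the mean of the gene over the 8 libraries, red for above and blue for below. RYGB 1 and RYGB 2 are red and sham 3 and sham 4 are blue for most genes, while sham 1 resembles the RYGB libraries and RYGB 4 the sham libraries.

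Genes of fat uptake and storage were lower in part. Of 25 genes 4 were DEGs, all lower, with a median log2 fold change of -0.58. Besides Plin4 and Aqp7 these were Gpihbp1 and Cavin1. Gpihbp1, which carries lipoprotein lipase across capillary cells, was at 70.2, 80.6, 65.5 and 48.7 CPM in RYGB 1 to 4 and 98.5, 130.4, 269 and 163 CPM in sham 1 to 4 (-1.23 ± 0.29 (SE), adjusted p = 0.013). Cavin1, a coat protein of the caveolae that crowd the adipocyte membrane, was at 729, 842, 863 and 438 CPM in RYGB 1 to 4 and 1335, 1472, 1683 and 1904 CPM in sham 1 to 4. The groups were well apart, with a log2 fold change of -1.19 ± 0.25 (SE), adjusted p = 0.0084. The scavenger receptor Cd36, which takes up fatty acids, was at 3619.6, 3473, 3073 and 1660.1 CPM in RYGB 1 to 4 and 4449, 4773, 7759 and 7091 CPM in sham 1 to 4. It did not overlap either, but the test gave -1.05 ± 0.37 (SE), adjusted p = 0.051. Lipoprotein lipase itself (Lpl) was at 7045, 5874, 5718 and 2165 CPM in RYGB 1 to 4 and 6834, 5902.5, 4892 and 5924 CPM in sham 1 to 4 (adjusted p = 0.6). Cavin1 and Gpihbp1 were DEGs in all 8 fits without 1 library.

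Of 22 lipolysis genes 5 were lower (Npr1, Npr3, Mgll, Hcar1 and Gnai1), while Adra2a was higher. Npr1, the receptor through which natriuretic peptides drive lipolysis, was at 107.5, 139, 97.8 and 77.4 CPM in RYGB 1 to 4 and 188, 189, 248.5 and 227 CPM in sham 1 to 4, with a log2 fold change of -1.03 ± 0.18 (SE), adjusted p = 0.0045. It stayed a DEG in all 8 fits without 1 library. Npr3, which clears these peptides, was at 242.5, 241, 700.3 and 242 CPM in RYGB 1 to 4 and 554, 1203.5, 866 and 1261 CPM in sham 1 to 4. RYGB 3 exceeded sham 1, the log2 fold change was -1.55 ± 0.40 (SE), adjusted p = 0.018, and the call was lost without sham 2 or sham 4 (highest adjusted p = 0.051). Both receptors were thus lower. Mgll, which cleaves monoglycerides in the last step of lipolysis, changed by -0.93 ± 0.28 (SE), adjusted p = 0.029, with the call lost without RYGB 2, RYGB 3, sham 2, sham 3 or sham 4 (highest adjusted p = 0.076). The lactate receptor Hcar1 changed by -0.78 ± 0.21 (SE), adjusted p = 0.023, with the call lost without RYGB 3, sham 3 or sham 4 (highest adjusted p = 0.061), and Gnai1, an inhibitory G protein, by -0.69 ± 0.22 (SE), adjusted p = 0.036, with the call lost without RYGB 2, RYGB 3, RYGB 4, sham 1, sham 2, sham 3 or sham 4 (highest adjusted p = 0.093).

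The lipases that start lipolysis did not pass the test: Pnpla2 was at -0.54 ± 0.25 (SE), adjusted p = 0.11, and Lipe, the hormone-sensitive lipase, at -0.54 ± 0.25 (SE), adjusted p = 0.11. The main adrenergic receptor of mouse adipocytes, Adrb3, was at 319.5, 300.4, 268 and 175 CPM in RYGB 1 to 4 and 405.5, 155, 101.5 and 96.3 CPM in sham 1 to 4 (adjusted p = 0.21). Sham 1 had the highest level of all and the other sham libraries the lowest. Adra2a, an inhibitory adrenergic receptor, was higher (0.85 ± 0.28 (SE), adjusted p = 0.04), and its call was lost without RYGB 2, RYGB 3, RYGB 4, sham 1, sham 3 or sham 4 (highest adjusted p = 0.1).

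Of 20 genes of insulin signalling and glucose use 3 were higher (Tbc1d4, Ptpn1 and Socs3) and 3 lower (Irs1, Grb10 and Trarg1), and the list's median log2 fold change was 0.04. Its share of higher genes (15.0%) was about that of all genes tested (14.9%), so the count is no result about the list. Irs1, the adaptor below the insulin receptor, was at 90.5, 109, 74.3 and 54.7 CPM in RYGB 1 to 4 and 114, 124, 143 and 120.5 CPM in sham 1 to 4 (-0.64 ± 0.19 (SE), adjusted p = 0.031). Its call was lost without RYGB 3, RYGB 4, sham 2, sham 3 or sham 4 (highest adjusted p = 0.078). Grb10, which dampens the insulin receptor, was at -0.68 ± 0.20 (SE), adjusted p = 0.029, with the call lost without RYGB 3, RYGB 4, sham 1, sham 2 or sham 3 (highest adjusted p = 0.077). Tbc1d4, which restrains GLUT4 until insulin acts and is also expressed in T cells, was at 108, 98.3, 125 and 207 CPM in RYGB 1 to 4 and 83.6, 53.8, 48.0 and 56.1 CPM in sham 1 to 4 (1.11 ± 0.25 (SE), adjusted p = 0.012). Socs3, an inhibitor of cytokine signalling, was highest in RYGB 4, at 22.9, 37.3, 30.4 and 89.0 CPM in RYGB 1 to 4 and 19.9, 17.0, 18.0 and 13.2 CPM in sham 1 to 4 (1.17 ± 0.36 (SE), adjusted p = 0.033). The Socs3 call was lost without RYGB 2, RYGB 3, sham 1, sham 2, sham 3 or sham 4 (highest adjusted p = 0.084), and that of the insulin receptor phosphatase Ptpn1 (0.75 ± 0.20 (SE), adjusted p = 0.022) without RYGB 4, where its fold change fell under 1.5, or sham 2. GLUT4 itself (Slc2a4) was at 278, 214, 150.3 and 61.7 CPM in RYGB 1 to 4 and 221, 152, 114 and 154 CPM in sham 1 to 4 (adjusted p = 0.97).

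The remaining metabolic lists held few DEGs. Of 20 genes of fatty acid oxidation 0 were DEGs in limma with or without the trend, and 3 were lower at an unadjusted p under 0.05. Their median log2 fold change was -0.09. Of 21 genes of branched-chain amino acid breakdown 1 was a DEG, the phosphatase Ppm1k (0.77 ± 0.17 (SE), adjusted p = 0.011), and the median was 0.05. Of 19 cholesterol synthesis genes 2 were higher: the controlling factor Srebf2 (0.93 ± 0.17 (SE), adjusted p = 0.0059) and Mvd (0.73 ± 0.19 (SE), adjusted p = 0.019), whose call was lost without sham 4 (adjusted p = 0.055). Of 17 thermogenic genes 2 were higher (Tmem26 and Pank1) and 1 was lower (Adcy3). The share of higher genes was 10.5% for cholesterol synthesis and 11.8% for thermogenic genes, under the 14.9% of all genes tested. The higher counts are thus no result about either list. Ucp1, which uncouples respiration in brown and beige adipocytes, was at 18.3, 29.3, 4.1 and 3.2 CPM in RYGB 1 to 4 and 7.8, 14.0, 0.8 and 15.0 CPM in sham 1 to 4, low in both groups, and the groups overlapped (adjusted p = 0.7). Cidea, another beige marker, was at 31.7, 30.1, 12.0 and 5.0 CPM in RYGB 1 to 4 and 14.5, 14.7, 3.5 and 7.2 CPM in sham 1 to 4 (adjusted p = 0.31). Tmem26 was at 7.9, 7.7, 9.5 and 14.0 CPM in RYGB 1 to 4 and 4.6, 2.7, 1.6 and 2.0 CPM in sham 1 to 4 and stayed a DEG in all 8 fits without 1 library (1.56 ± 0.27 (SE), adjusted p = 0.0042). The calls were lost for Pank1 without RYGB 2, RYGB 3, sham 2, sham 3 or sham 4 (highest adjusted p = 0.073) and for Adcy3 without RYGB 3, sham 3 or sham 4 (highest adjusted p = 0.076). Of 11 glucocorticoid-induced genes 3 were lower (Dusp1, Mt2 and Zbtb16). Dusp1, a phosphatase of MAP kinases, was at 46.4, 52.9, 35.8 and 32.2 CPM in RYGB 1 to 4 and 89.6, 95.1, 98.0 and 106 CPM in sham 1 to 4 (-1.22 ± 0.16 (SE), adjusted p = 0.0012), whereas Tsc22d3, a direct glucocorticoid target, was above every sham library at a fold under 1.5 (0.57 ± 0.13 (SE), adjusted p = 0.012). The Mt2 call was lost without RYGB 1, RYGB 3, RYGB 4, sham 1, sham 3 or sham 4 (highest adjusted p = 0.097), and the Zbtb16 call without RYGB 1, RYGB 2, RYGB 4, sham 1, sham 2, sham 3 or sham 4 (highest adjusted p = 0.091).

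About as many matrix genes passed the test as did not. Of 31 genes for matrix proteins and their enzymes 16 were DEGs, all lower, against 9.23% of all genes, with a median log2 fold change of -0.93. Hspg2, the basement membrane proteoglycan perlecan, was at 685.5, 678, 812 and 451 CPM in RYGB 1 to 4 and 1147, 1498, 1514 and 1513.5 CPM in sham 1 to 4, well apart between groups, with a log2 fold change of -1.13 ± 0.21 (SE), adjusted p = 0.0057. Nid1, which links laminin to collagen IV, was at 607, 529.8, 685 and 290.0 CPM in RYGB 1 to 4 and 835, 1538, 1083 and 1103 CPM in sham 1 to 4 (-1.14 ± 0.29 (SE), adjusted p = 0.018), whereas its relative Nid2 was no DEG (-0.67 ± 0.36 (SE), adjusted p = 0.16). The laminin chains Lamb1 (-0.81 ± 0.20 (SE), adjusted p = 0.015), Lamc1 (-0.94 ± 0.26 (SE), adjusted p = 0.023) and Lama4 (-0.85 ± 0.26 (SE), adjusted p = 0.034) were lower as well. The Lamc1 call was lost without sham 2 (adjusted p = 0.062), and the Lama4 call without RYGB 2, RYGB 4, sham 1, sham 2, sham 3 or sham 4 (highest adjusted p = 0.083).

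Sparc, a collagen-binding glycoprotein abundant in growing fat, was at 1403.5, 1301, 1995 and 721 CPM in RYGB 1 to 4 and 2565.5, 4168, 2812 and 2599.6 CPM in sham 1 to 4. Sham 2 had the highest level, the groups did not overlap (-1.22 ± 0.33 (SE), adjusted p = 0.022), and the call was lost without sham 2 (adjusted p = 0.059). Thbs1, which activates TGF-beta, was at 30.3, 90.0, 30.5 and 105 CPM in RYGB 1 to 4 and 68.1, 287, 762.5 and 575.5 CPM in sham 1 to 4. RYGB 2 and RYGB 4 exceeded sham 1, the log2 fold change was -2.46 ± 0.75 (SE), adjusted p = 0.032, and the call was lost without RYGB 1, RYGB 3, sham 2, sham 3 or sham 4 (highest adjusted p = 0.081). Its relative Thbs2 (-1.50 ± 0.35 (SE), adjusted p = 0.014) and the elastic fibre protein Fbln2 (-1.60 ± 0.40 (SE), adjusted p = 0.016) did not overlap between groups and were DEGs in all 8 fits without 1 library. The list count of 16 dropped to 9 without sham 2, the library with the highest collagen levels.

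Col1a1 and Col3a1 were not DEGs. Col1a1, the main chain of type I collagen, was at 893, 807.5, 1021 and 273 CPM in RYGB 1 to 4 and 1629, 3323, 848 and 865 CPM in sham 1 to 4. Sham 3 and sham 4 lay within the RYGB range (adjusted p = 0.14). Col3a1 was at 2011, 1653, 2551 and 376 CPM in RYGB 1 to 4 and 3604, 7211, 1373 and 1689 CPM in sham 1 to 4 (adjusted p = 0.25). Of 23 collagen genes 4 were lower: Col4a2 of the basement membrane (-0.93 ± 0.27 (SE), adjusted p = 0.028), Col8a1 (-1.28 ± 0.37 (SE), adjusted p = 0.028), Col16a1 (-1.05 ± 0.21 (SE), adjusted p = 0.0079) and Col18a1 (-0.86 ± 0.27 (SE), adjusted p = 0.035). Col16a1 was a DEG in all 8 fits without 1 library. The other type IV chains Col4a1 (adjusted p = 0.051), Col4a3 (adjusted p = 0.44), Col4a4 (adjusted p = 0.24) and Col4a5 (adjusted p = 0.065) did not pass the test. The call was lost for Col4a2 without RYGB 2, sham 2, sham 3 or sham 4 (highest adjusted p = 0.075), for Col8a1 without RYGB 3, sham 2, sham 3 or sham 4 (highest adjusted p = 0.071) and for Col18a1 without RYGB 2, RYGB 4, sham 1, sham 2, sham 3 or sham 4 (highest adjusted p = 0.087). The summed collagens were 8952, 7362, 10135 and 2827 in RYGB 1 to 4 and 14071, 22682, 8662 and 9108 in sham 1 to 4 (CPM), with RYGB 4 lowest and sham 2 highest.

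Most markers of fat progenitors and fibroblasts had values below 0, and few passed the test. The median log2 fold change was -0.90, with 21 of 25 genes below 0, and at an unadjusted p under 0.05 12 were lower and 3 were higher. Of the 25 genes 4 were DEGs with lower levels (Pdgfrb, Ly6c1, Fmo2 and Zfp423) and 3 with higher levels (Thy1, Cd55 and Icam1). Pdgfra, the receptor that defines these cells, was at 128, 129, 109 and 77.6 CPM in RYGB 1 to 4 and 154.5, 162, 124 and 128 CPM in sham 1 to 4 (adjusted p = 0.12). Zfp423, which commits progenitors to the fat lineage, was at 40.1, 38.6, 39.8 and 23.5 CPM in RYGB 1 to 4 and 58.4, 66.1, 53.7 and 58.9 CPM in sham 1 to 4 (-0.75 ± 0.17 (SE), adjusted p = 0.012), and its fold change was under 1.5 without RYGB 4. Pi16, a marker of early progenitors, was at 111, 56.6, 122 and 9.4 CPM in RYGB 1 to 4 and 297, 304, 124 and 76.1 CPM in sham 1 to 4, with overlap between groups (adjusted p = 0.12). The Pdgfrb call was lost without RYGB 3, RYGB 4, sham 1, sham 2, sham 3 or sham 4 (highest adjusted p = 0.1). Thy1 was at 107, 105.5, 136 and 290.1 CPM in RYGB 1 to 4 and 40.6, 93.8, 29.4 and 32.1 CPM in sham 1 to 4 (1.71 ± 0.42 (SE), adjusted p = 0.016), and the Icam1 call was lost without RYGB 2, RYGB 3, sham 1, sham 2 or sham 3 (highest adjusted p = 0.096). Thy1, Cd55 and Icam1 are also made by lymphocytes or lymph node stroma, and like the lymphocyte genes all 3 were highest in RYGB 4. How much of their level came from lymph node cells was not tested.

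Blood endothelial genes had the largest share of DEGs of any list outside the lymphoid ones. Of 27 genes 23 (85.2%) were DEGs, all lower, against 9.23% of all genes, with a median log2 fold change of -0.97. Cdh5 (chr8:104101625-104144511), the VE-cadherin that joins endothelial cells, was at 333, 457, 364 and 256 CPM in RYGB 1 to 4 and 614, 860.0, 1103 and 822 CPM in sham 1 to 4. The highest RYGB library lay below the lowest sham library, with a log2 fold change of -1.27 ± 0.22 (SE), adjusted p = 0.0048. Vwf, the clotting factor stored in endothelium, was at 58.1, 72.8, 64.9 and 61.2 CPM in RYGB 1 to 4 and 115, 123, 118 and 160.0 CPM in sham 1 to 4. Values were close within each group, and the log2 fold change was -0.99 ± 0.13 (SE), adjusted p = 0.0013. The transcription factor Sox18 was at 49.7, 78.6, 53.9 and 45.2 CPM in RYGB 1 to 4 and 102, 104, 138 and 124 CPM in sham 1 to 4 (-1.05 ± 0.18 (SE), adjusted p = 0.0042), and Robo4, which stabilises vessels, was at 70.9, 84.3, 77.6 and 59.2 CPM in RYGB 1 to 4 and 114, 160.1, 243 and 180.4 CPM in sham 1 to 4 (-1.20 ± 0.22 (SE), adjusted p = 0.0052). Tie1, a receptor of the angiopoietin system, was at 103, 142, 102.5 and 78.2 CPM in RYGB 1 to 4 and 174, 211, 237 and 189 CPM in sham 1 to 4 (-0.94 ± 0.18 (SE), adjusted p = 0.0063). The VEGF receptor Kdr changed by -0.85 ± 0.26 (SE), adjusted p = 0.032, with the call lost without RYGB 3, sham 3 or sham 4 (highest adjusted p = 0.073). The 4 genes that were not DEGs were Plvap, which is also abundant in lymph node vessels (adjusted p = 0.76), Nos3 (adjusted p = 0.33), Clec14a (adjusted p = 0.11) and Ecscr (adjusted p = 0.063).

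Promoters of 13 of the 27 genes were found in the RefSeq table for GRCm38.p6, and the 250 bases before the start of each gene were read. The letters AGGAAG, on either strand, hold the GGAA core read by the ETS factors that include Erg. They were present in 8 of the 13 (61.5%), beside 32.3% of all 27025 genes with a promoter in that table. The letters were chosen after the counts were known, and a match is no evidence of binding. Tie1 (chr4:118489850-118490099, minus strand) and Robo4 (chr9:37401722-37401971, plus strand) are shown as examples of genes that fell together, 5′ to 3′, with the letters in capitals (CTTCCT is the same site on the other strand).
Tie1: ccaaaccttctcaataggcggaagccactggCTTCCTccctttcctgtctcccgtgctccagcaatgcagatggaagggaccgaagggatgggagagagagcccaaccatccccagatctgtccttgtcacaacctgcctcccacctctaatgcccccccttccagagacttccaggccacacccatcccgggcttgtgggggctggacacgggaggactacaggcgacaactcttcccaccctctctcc
Robo4: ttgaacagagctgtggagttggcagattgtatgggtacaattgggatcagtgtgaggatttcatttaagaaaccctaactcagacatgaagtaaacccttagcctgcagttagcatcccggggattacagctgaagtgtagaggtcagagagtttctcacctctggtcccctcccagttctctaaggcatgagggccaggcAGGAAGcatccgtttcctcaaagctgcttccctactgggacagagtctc

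Vessel ligands and receptors moved in part. Aplnr, the apelin receptor of endothelial cells, was at 62.9, 100.5, 73.8 and 37.5 CPM in RYGB 1 to 4 and 126, 239, 219 and 155 CPM in sham 1 to 4 (-1.45 ± 0.31 (SE), adjusted p = 0.0091), so that both apelin and its receptor were lower. Of 15 angiogenic ligands 5 were lower: Apln, Angptl4, Angpt2 (-1.07 ± 0.30 (SE), adjusted p = 0.023), Fgf2 (-0.80 ± 0.20 (SE), adjusted p = 0.017) and Fgf1 (-0.78 ± 0.27 (SE), adjusted p = 0.048). The calls were lost for Angpt2 without sham 2, sham 3 or sham 4 (highest adjusted p = 0.064) and for Fgf1 without RYGB 1, RYGB 2, RYGB 3, RYGB 4, sham 1, sham 2 or sham 4 (highest adjusted p = 0.12). Vegfa, the main growth factor of capillaries, was at 295, 242, 291 and 156 CPM in RYGB 1 to 4 and 325, 188, 378 and 291 CPM in sham 1 to 4, with overlap between groups (adjusted p = 0.44). Of 17 mural genes, which mark pericytes and vascular smooth muscle, 7 were lower and 1 (Des) was higher. Mcam was at 235, 265, 319.7 and 163 CPM in RYGB 1 to 4 and 446, 510.2, 488 and 552 CPM in sham 1 to 4 (-1.06 ± 0.20 (SE), adjusted p = 0.0057) and Notch3, the Notch receptor of mural cells, at 129, 182, 124.5 and 97.3 CPM in RYGB 1 to 4 and 203, 325, 194 and 219.6 CPM in sham 1 to 4 (-0.82 ± 0.22 (SE), adjusted p = 0.02), with its call lost without RYGB 3 (adjusted p = 0.052). The mural count was 3 without RYGB 3, 4 without sham 2 and 4 without sham 4. Of 7 lymphatic endothelial genes 2 were higher, Prox1 (2.34 ± 0.31 (SE), adjusted p = 0.0014) and Mmrn1 (1.56 ± 0.28 (SE), adjusted p = 0.005), and 1 was lower, Pdpn (-0.78 ± 0.20 (SE), adjusted p = 0.019, call lost without sham 3 (adjusted p = 0.051)). Prox1, the factor that fixes lymphatic identity, was at 4.2, 4.5, 8.0 and 11.5 CPM in RYGB 1 to 4 and 0.1, 1.0, 0.5 and 0.5 CPM in sham 1 to 4, whereas the lymphatic receptor Lyve1 overlapped between groups (adjusted p = 0.33).

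**Figure D4:**
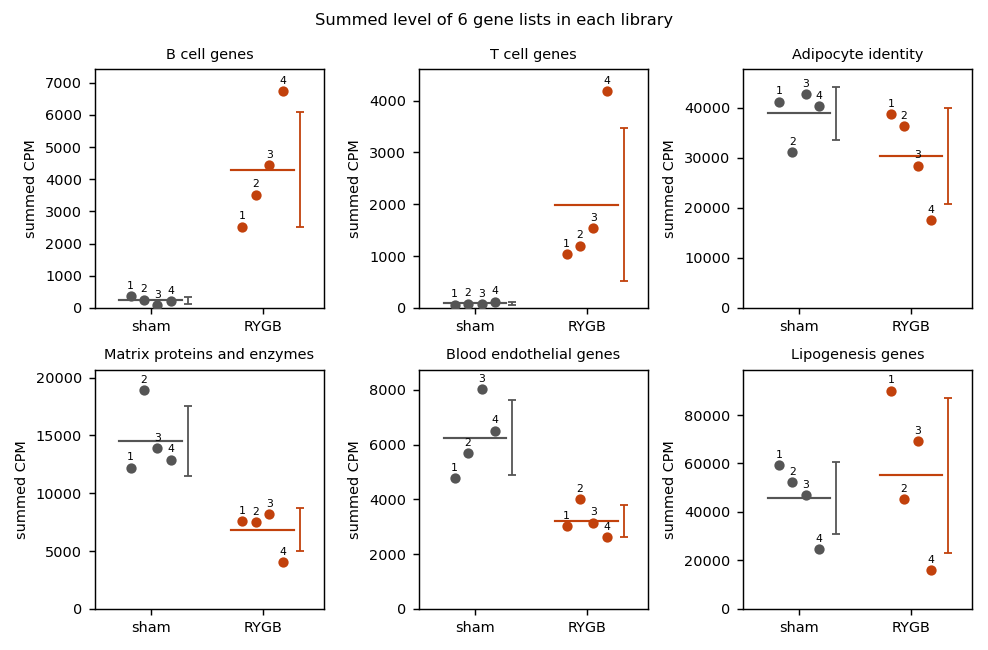
Summed CPM of 6 gene lists in each library (vertical axes start at 0), with the replicate number above each point, a line at the group mean and a bar of 1 SD beside it (n = 4). The matrix and endothelial sums of all RYGB libraries lie below those of all sham libraries, the B and T cell sums lie above, and the adipocyte and lipogenesis sums overlap.

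Macrophage genes were lower in part. Of 16 genes 6 were lower and 1, Timd4, was higher. Cd68, a lysosomal protein of macrophages, was at 144.5, 156, 98.4 and 77.9 CPM in RYGB 1 to 4 and 212, 202, 241 and 354.5 CPM in sham 1 to 4, with no overlap (-1.09 ± 0.26 (SE), adjusted p = 0.013). Adgre1, which encodes F4/80, was at 130.2, 139, 81.9 and 42.6 CPM in RYGB 1 to 4 and 208, 161, 152 and 349 CPM in sham 1 to 4 (-1.19 ± 0.40 (SE), adjusted p = 0.042), and its call was lost without RYGB 3, RYGB 4, sham 1, sham 2, sham 3 or sham 4 (highest adjusted p = 0.1). The complement genes C1qa (adjusted p = 0.39) and C1qb (adjusted p = 0.13) overlapped between groups, as did Lyz2 (adjusted p = 0.48). Timd4, a receptor for dying cells on resident and lymph node macrophages, was at 50.1, 39.3, 81.7 and 127 CPM in RYGB 1 to 4 and 12.8, 7.1, 3.5 and 3.2 CPM in sham 1 to 4 (3.33 ± 0.46 (SE), adjusted p = 0.0016) and was highest in RYGB 4.

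Of 12 genes of lipid-associated macrophages, which surround dying adipocytes in obese fat, 5 were lower (Gpnmb, Atp6v0d2, Lgals3, Spp1 and Lipa) and 1 was higher (Cd300lf). Gpnmb, a lysosomal membrane protein, was at 329.5, 348, 173 and 72.0 CPM in RYGB 1 to 4 and 411, 587, 656 and 1129 CPM in sham 1 to 4. RYGB 4 was lowest and sham 4 highest (-1.73 ± 0.50 (SE), adjusted p = 0.028). Atp6v0d2, a subunit of the lysosomal proton pump, was at 49.9, 59.5, 26.4 and 11.6 CPM in RYGB 1 to 4 and 71.1, 91.5, 119 and 199 CPM in sham 1 to 4 (-1.81 ± 0.50 (SE), adjusted p = 0.023). Trem2, the lipid receptor that marks these cells, was at 53.9, 59.9, 26.0 and 9.0 CPM in RYGB 1 to 4 and 71.2, 56.3, 65.0 and 132 CPM in sham 1 to 4 and was no DEG (adjusted p = 0.08). The count of 5 was unstable: it was 2 without RYGB 3, 2 without sham 2, 1 without sham 3, 1 without sham 4 and 8 without RYGB 1, so it depended on single libraries. Of the 5, the lysosomal lipase gene Lipa was a DEG in all 8 of these fits (-1.03 ± 0.25 (SE), adjusted p = 0.015). The calls were lost for Gpnmb without RYGB 3, sham 2, sham 3 or sham 4 (highest adjusted p = 0.071), for Atp6v0d2 without RYGB 3, sham 3 or sham 4 (highest adjusted p = 0.06), for Lgals3 without RYGB 3, sham 2, sham 3 or sham 4 (highest adjusted p = 0.064) and for Spp1 without RYGB 3, sham 2, sham 3 or sham 4 (highest adjusted p = 0.09).

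Of 18 chemokine and cytokine genes 5 were lower (Ccl2, Ccl7, Ccl9, Cxcl14 and Il1rn) and 3 were higher, with a median log2 fold change of -0.30. Ccl2, the ligand of the monocyte receptor CCR2, was at 9.5, 16.3, 6.3 and 10.9 CPM in RYGB 1 to 4 and 17.5, 34.5, 35.9 and 38.0 CPM in sham 1 to 4, with no overlap (-1.48 ± 0.31 (SE), adjusted p = 0.0086), and Ccl9 was at 94.4, 117, 78.1 and 36.9 CPM in RYGB 1 to 4 and 155, 238, 273 and 327 CPM in sham 1 to 4 (-1.66 ± 0.35 (SE), adjusted p = 0.0096). Il1rn, the natural antagonist of interleukin-1, was at 10.6, 18.3, 12.1 and 10.0 CPM in RYGB 1 to 4 and 16.4, 60.3, 98.2 and 67.2 CPM in sham 1 to 4 (-1.95 ± 0.48 (SE), adjusted p = 0.015), with RYGB 2 above sham 1. The Ccl7 call was lost without RYGB 1, RYGB 3, sham 2, sham 3 or sham 4 (highest adjusted p = 0.1), and the Cxcl14 call without sham 2 (adjusted p = 0.053). The higher genes were Ccl5, which T cells make (3.78 ± 0.39 (SE), adjusted p = 0.00038), Tnf (1.54 ± 0.27 (SE), adjusted p = 0.0048) and Il33 (1.40 ± 0.39 (SE), adjusted p = 0.025), with the Il33 call lost without sham 3 or sham 4 (highest adjusted p = 0.065). All 3 were highest in RYGB 4.

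Scaling to the adipocyte genes bears on each of these groups. It moved the median over all tested genes from 0.105 to 0.652 on the log2 scale, after which 4569 genes (34.2%) were higher and 83 (0.620%) were lower. Of the 23 lower endothelial genes 1 (Aplnr) was still a DEG, and the endothelial median was -0.41. Of the 16 lower matrix genes 4 were still DEGs (Fbln2, Thbs1, Thbs2 and Tnxb), and the matrix median was -0.36. The mural count was 0, with 7 in CPM as deposited. The adipocyte identity list holds all 10 reference genes, so that its median is brought near 0 by construction and its count on this scale says nothing about it. Vessel and matrix genes were thus lower as a share of all RNA, and by a smaller amount that mostly did not pass the test relative to adipocyte genes. Per 1000 CPM of summed adipocyte identity genes, the endothelial sum stood at 77.4, 110, 111 and 149 CPM in RYGB 1 to 4 and at 116, 182, 188 and 161 CPM in sham 1 to 4. The 2 groups overlapped on this ratio at RYGB 4 and sham 1.

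**Figure D5:**
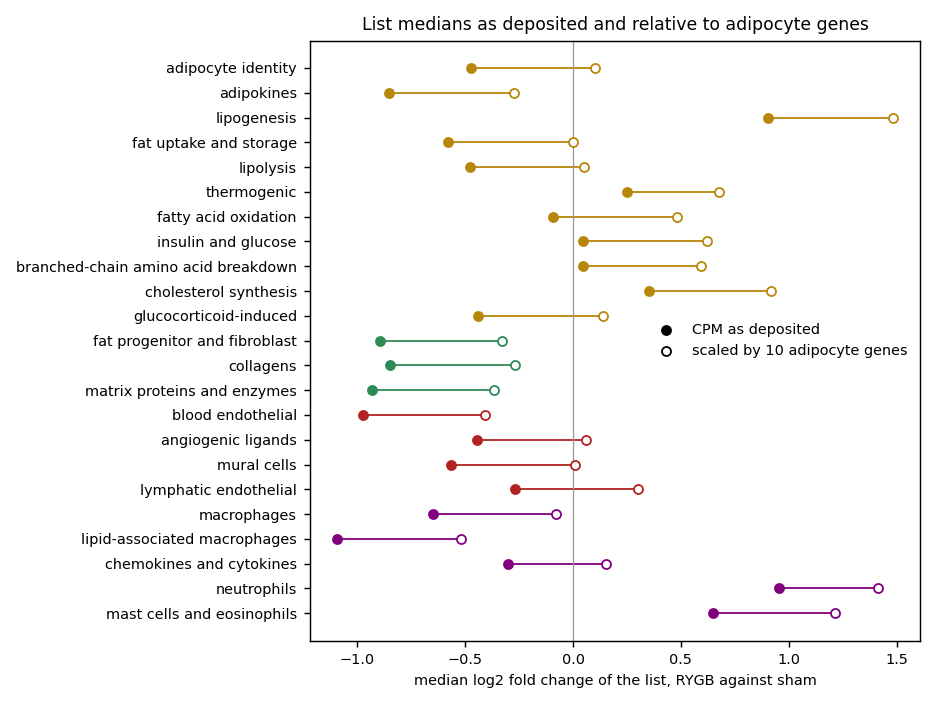
Median log2 fold change (horizontal axis, RYGB against sham) of 23 adipocyte, stromal, vessel and myeloid lists in CPM as deposited (filled points) and after scaling each library to 10 adipocyte genes (open points). Every list moves to the right, the endothelial median goes from -0.97 to -0.41, and the adipocyte identity list, which holds the 10 scaling genes, moves to near 0 by construction.

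Beyond the lists, the genes with the largest changes among DEGs with a sham mean of at least 10 CPM and no overlap were taken by rule, 10 in each direction. Those with the largest increases were Igkc, Clu, Sorl1, Cyfip2, Cytip, Arhgap4, Itgal, Icosl, Cacnb3 and Nup210. Several of them are leukocyte genes, such as the integrin Itgal, and Clu, a chaperone also made by follicular dendritic cells, was at 309, 354, 476 and 965 CPM in RYGB 1 to 4 and 32.1, 30.3, 30.8 and 34.4 CPM in sham 1 to 4 (3.85 ± 0.31 (SE), adjusted p = 0.00012). Those with the largest decreases were Krt5, Dsp, Sfrp5, Perp, Ccn5, Tm4sf19, Dmkn, Mest, Vsig8 and Apln. Mest, an imprinted gene whose level in mouse fat is known to follow fat expansion, was at 57.1, 119, 248 and 102 CPM in RYGB 1 to 4 and 304.5, 345, 595 and 768 CPM in sham 1 to 4. The groups did not overlap, and the log2 fold change was -2.02 ± 0.45 (SE), adjusted p = 0.011. Ccn5, a secreted matricellular protein of the CCN family, was at 2.8, 1.6, 2.4 and 1.3 CPM in RYGB 1 to 4 and 3.6, 29.3, 19.8 and 18.2 CPM in sham 1 to 4 (-2.37 ± 0.52 (SE), adjusted p = 0.01). Tm4sf19, a membrane protein, was at 2.2, 3.0, 1.3 and 1.0 CPM in RYGB 1 to 4 and 3.9, 13.8, 18.8 and 15.8 CPM in sham 1 to 4 (-2.17 ± 0.43 (SE), adjusted p = 0.0074). The Mest, Ccn5 and Tm4sf19 calls held in all 8 fits without 1 library.

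Krt5, Dsp and Perp are genes of skin keratinocytes. Krt5 was at 0.0, 0.1, 0.0 and 0.0 CPM in RYGB 1 to 4 and 51.9, 30.0, 72.1 and 1.0 CPM in sham 1 to 4. It was absent or nearly so in all RYGB libraries, and sham 4 was far below the other sham libraries. Every listed gene reached 1 CPM in 4 or more of the 8 libraries. A gene this low in all RYGB libraries is thus listed only if all 4 sham libraries reach 1 CPM. The lack of overlap of Krt5 was therefore fixed in advance, as was that of Dsp (at most 0.3 CPM in the RYGB group). Similar genes under 1 CPM in sham 4 would not be listed. Of the 7 keratinocyte genes measured 3 were lower and 1, Dsc3, was higher (43.5, 61.1, 66.2 and 140.0 CPM in RYGB 1 to 4 and 6.4, 2.6, 12.5 and 0.0 CPM in sham 1 to 4). Their sum ranged from 58.7 to 163.9 CPM in the RYGB group, most of it Dsc3, and from 10.5 to 214.4 CPM in the sham group, while Krt14 and other defining markers were not analysed here. The part of skin RNA in the results was not tested.

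Markers of other tissues gave few DEGs. Of 5 red cell and 4 skeletal muscle genes 0 were DEGs in limma with or without the trend, and 0 had an unadjusted p under 0.05. The summed red cell genes ranged from 88.2 to 433 CPM in the RYGB group and from 181 to 1014 CPM in the sham group, and all 5 had a log2 fold change below 0. The summed Schwann cell genes ranged from 351 to 541 CPM in the RYGB group and from 441 to 774 CPM in the sham group. The summed muscle genes were highest in RYGB 2 (51.2 CPM) and sham 2 (66.1 CPM). Of 7 Schwann cell genes 1 (Sox10) was lower, with 3 lower at an unadjusted p under 0.05, and of 3 gland epithelium genes 1 (Krt19) was lower. Of 6 neutrophil genes 1 (Cxcr2) was higher, and S100a8 and S100a9 were high in RYGB 4 alone, at 77.8 and 117.8 CPM beside 10.2 CPM or less in the other 7 libraries. Of 7 mast cell and eosinophil genes 2 were higher (Mcpt4 and Il5ra), and of 15 cell division genes 2 were higher (Mcm2 and Mcm5), with RYGB 4 highest. The share of higher genes was 13.3% for cell division and 16.7% for neutrophils, beside 14.9% of all genes tested. Neither of these counts is thus a result about its list. The calls were lost for Sox10 without RYGB 1, sham 1 or sham 4 (highest adjusted p = 0.08), for Krt19 without RYGB 3, sham 2 or sham 4 (highest adjusted p = 0.066) and for Mcm5 without RYGB 2, RYGB 3, sham 1, sham 2, sham 3 or sham 4 (highest adjusted p = 0.08).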

How the data were processed

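The submitters' notes name HTSeq for counting and GRCm38 as the genome, and the aligner is not given in the sources used here. Libraries were stranded mRNA libraries. The authors deposited 1 table of fat values in CPM rounded to 0.1, with 1 column per library and column sums of 962798 to 969903. All listed genes had 1 CPM or more in 4 or more of the 8 libraries. A gene under 1 CPM in all 4 libraries of a group is thus listed only if the other group lies wholly above it. For such a gene the lack of overlap is no result. Depth is unknown, since total counts were not part of the table, and no counting interval was computed. Of 13792 gene lines 379 repeated a gene with equal values and were counted once, and 20 lines without a gene were dropped. Gene names came from Ensembl IDs (13384 of 13413 matched), and coordinates and promoters refer to GRCm38.

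RYGB was compared with sham on log2(CPM + 1) with limma 3.58.1 (empirical Bayes with a trend, R 4.3.3) over genes whose mean reached 1 CPM, without scaling beyond CPM, with 4 libraries a group. Fold changes on this scale understate changes of low genes. P-values measure the spread between these samples only. The members, lists and tests were chosen with earlier results of these data known. Genes named are list members and, beyond the lists, the 10 DEGs with the largest change in each direction among DEGs with a sham mean of at least 10 CPM and no overlap between groups. Of 541 different list genes 501 were in the table. The others were not analysed here, and single results of some list members are not reported here. Alternatives were other pseudocounts (0.1 and 5), CPM minimums (none and 10), scalings, covariates (sequencing lane, second index), a replicate block, limma without the trend, leaving out each library and sham 4 as the only sham library. RYGB libraries were run on lanes 1, 5, 5 and 6 and sham libraries on lanes 5, 5, 4 and 6, and both second indices were used in both groups. On simulated data with 13379 genes for this comparison 68% of genes with an absolute log2 fold change of 1 and 97% of those with 2 were recovered. The changed genes were drawn only from those with a mean level of about 10 CPM or more, and noise was independent between genes. The rates therefore do not cover lower genes. Python 3.11.15, pandas 2.3.3, numpy 2.4.6 and matplotlib 3.10.9 prepared tables and plots.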

Additional observations from a re-analysis of the deposited data

Results flagged for a closer look

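Single libraries that stood apart from the other 3 of their group were sought with Dixon's ratio, the gap to the nearest library divided by the range of the group, at its 95% critical value. Of 382 groups of 4 values examined 23 held such a library, and chance gives about 1 in 20. RYGB 2 stood apart as the highest of its group for Krt5 (0.1 CPM beside 0.0 CPM, gap ratio 1.0). RYGB 3 stood apart as the highest of its group for Npr3 (700.3 CPM beside 241 to 242.5 CPM, gap ratio 0.995) and Zbtb16 (57.7 CPM beside 28.9 to 32.2 CPM, gap ratio 0.845). RYGB 4 stood apart as the highest of its group for Dsp (0.3 CPM beside 0.1 CPM, gap ratio 1.0) and S100a8 (77.8 CPM beside 4.4 to 5.9 CPM, gap ratio 0.909). RYGB 4 stood apart as the lowest of its group for Adipoq (864 CPM beside 1464.5 to 1592 CPM, gap ratio 0.863), Col18a1 (73.5 CPM beside 157 to 178.5 CPM, gap ratio 0.853), Gnai1 (109 CPM beside 195 to 211 CPM, gap ratio 0.883), Kdr (150.0 CPM beside 281 to 288 CPM, gap ratio 0.961), Lamb1 (115.5 CPM beside 199 to 219 CPM, gap ratio 0.851), Rarres2 (133 CPM beside 225 to 240.5 CPM, gap ratio 0.889), Tnxb (66.1 CPM beside 217 to 246 CPM, gap ratio 0.904), Zfp423 (23.5 CPM beside 38.6 to 40.1 CPM, gap ratio 0.928) and the sum of the matrix proteins and enzymes (4068 CPM beside 7486 to 8214 CPM, gap ratio 0.868). Sham 1 stood apart as the highest of its group for Dbp (111 CPM beside 32.0 to 35.6 CPM, gap ratio 0.915). Sham 1 stood apart as the lowest of its group for Ccl2 (17.5 CPM beside 34.5 to 38.0 CPM, gap ratio 0.874), Fmo2 (64.4 CPM beside 107.5 to 113 CPM, gap ratio 0.914) and Hspg2 (1147 CPM beside 1498 to 1514 CPM, gap ratio 0.962). Sham 2 stood apart as the highest of its group for Col4a5 (28.4 CPM beside 13.8 to 14.7 CPM, gap ratio 0.914) and Junb (56.7 CPM beside 38.4 to 40.0 CPM, gap ratio 0.896). Sham 2 stood apart as the lowest of its group for Adipoq (1692 CPM beside 2075 to 2153 CPM, gap ratio 0.847). Sham 4 stood apart as the lowest of its group for Lyve1 (35.7 CPM beside 65.7 to 69.4 CPM, gap ratio 0.917) and Scd1 (21784 CPM beside 44186 to 46075 CPM, gap ratio 0.944). RYGB 4 was the low library in most of the RYGB cases, and it also held the most lymphocyte RNA and the least summed adipocyte RNA. Whether these values go together was not tested. The Krt5 and Dsp values are within 0.3 CPM of 0 and close to the rounding step of the table. The Npr3 ratio concerns the only RYGB library that overlapped the sham group for that gene.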

How the results depend on the processing

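With scaling to the 10 adipocyte genes 4569 genes were higher and 83 lower, and the lower counts were 1 for endothelial, 0 for mural, 4 for matrix, 2 for adipokine, 0 for adipocyte identity (which holds the 10 genes) and 3 for lipid-associated macrophage genes, while all B and T cell calls held at 17 and 24. With sham 4 as the only sham library 30 genes were higher and 4 lower, the B cell count was 13, the T cell count was 0, and the lower counts of all 6 fat lists were 0. That fit has 1 sham library and 3 residual degrees of freedom, assumes that this library varies like the RYGB libraries, and says nothing about stability. Leaving out 1 library at a time gave 1526 to 2503 higher and 881 to 1365 lower DEGs, 16 to 23 endothelial, 3 to 9 mural, 9 to 15 matrix, 4 to 7 adipokine, 1 to 3 adipocyte identity and 1 to 8 lipid-associated macrophage genes. B and T cell counts stayed at 17 and 24.

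The deviations of same-numbered libraries from their group means had correlations of 0.389, 0.066, -0.252 and 0.287. Those of differently numbered libraries ranged from -0.341 to 0.292. These values cannot decide whether the numbers pair the mice, since each rests on 1 library a group. With a replicate block 2042 genes were higher and 1286 lower, and the lipid-associated macrophage count was 3. Other counts under the block were within 1.5 times the reported ones, as were all counts with other pseudocounts, other CPM minimums, the median-ratio scaling, the lane, the second index or no trend. The median-ratio scaling gave 1649 higher and 1668 lower genes. No reported call changed sign under any alternative. Depth per library is unknown, so no limit from counting could be given.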

Other observations

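Imprinted genes, of which 1 parental copy is silent and several of which act in growth, were looked at as a group after their values were seen, so their count is a description only. Of 16 genes tested 9 were lower and 1, the amino acid transporter Slc38a4, was higher, with a median log2 fold change of -0.72. Nnat, a membrane protein that regulates calcium in fat cell formation, was at 260.1, 359, 608 and 633 CPM in RYGB 1 to 4 and 799, 1410.3, 1898 and 1936 CPM in sham 1 to 4. The groups did not overlap, and the log2 fold change was -1.71 ± 0.37 (SE), adjusted p = 0.01 in limma. Peg3, a zinc finger protein, was at 78.7, 178, 141 and 180.1 CPM in RYGB 1 to 4 and 197, 326, 813 and 584 CPM in sham 1 to 4 (-1.60 ± 0.44 (SE), adjusted p = 0.023), with the call lost without RYGB 3, sham 3 or sham 4 (highest adjusted p = 0.062), and Peg10 was at 8.6, 12.4, 7.5 and 6.5 CPM in RYGB 1 to 4 and 13.1, 21.0, 42.8 and 43.3 CPM in sham 1 to 4 (-1.55 ± 0.37 (SE), adjusted p = 0.014). The growth factor receptor Igf2r changed by -0.76 ± 0.14 (SE), adjusted p = 0.0063, whereas Gnas, which encodes the stimulatory G protein of adrenergic signalling, was nearly even (adjusted p = 0.51). Summed over the list, the level was 1651.5, 1966, 2167 and 1929.7 in RYGB 1 to 4 and 2772, 3598, 4820.4 and 4861 in sham 1 to 4 (CPM). The Slc38a4 call was lost without sham 3 or sham 4 (highest adjusted p = 0.053). After scaling to the adipocyte genes 2 of the genes were lower, and the median was -0.18.

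The next 3 lists were also chosen after the values were seen. Of 15 immediate early genes 4 were lower: Fos, Jun, Atf3 and Klf4. The Atf3 call was lost without RYGB 3, sham 1, sham 2, sham 3 or sham 4 (highest adjusted p = 0.094). Fos, a subunit of the factor AP-1, was at 21.7, 26.4, 9.7 and 9.6 CPM in RYGB 1 to 4 and 33.6, 75.8, 47.9 and 76.0 CPM in sham 1 to 4 (-1.79 ± 0.38 (SE), adjusted p = 0.0095), with no overlap, while its partner Junb overlapped between groups (adjusted p = 0.46). Of 18 interferon response genes 3 were lower (Oasl2, Rsad2 and Ifi44), while Mx1 was higher. The Oasl2 call was lost without sham 2 (adjusted p = 0.05). Mx1 was at 18.3, 28.3, 29.0 and 54.9 CPM in RYGB 1 to 4 and 11.9, 12.7, 6.4 and 11.1 CPM in sham 1 to 4 and was highest in RYGB 4, the library with the most lymphocyte RNA. Of 18 clock genes 1 (5.56%, beside 9.23% of all genes tested) was lower, the repressor Cry2 (-0.60 ± 0.14 (SE), adjusted p = 0.013). Its fold change was under 1.5 without RYGB 3, RYGB 4, sham 1 or sham 4. The clock output gene Dbp was highest in RYGB 2 and sham 1, at 44.2, 121.5, 29.4 and 52.6 CPM in RYGB 1 to 4 and 111, 32.0, 33.9 and 35.6 CPM in sham 1 to 4.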
